A study of Homo sapiens with 10 samples.

Results

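The sites described here are Smad3 peaks of lung adenocarcinoma cells that were called after depletion of TTF-1 and not in control cells. They also overlapped a Smad4 peak. In H441 cells treated with an siRNA against TTF-1 (siTTF-1), 14145 Smad3 peaks were listed by ChIP-seq, chromatin immunoprecipitation followed by sequencing. Of these, 6944 peaks (49.1% of the list) did not touch any of the 8941 Smad3 peaks of H441 cells given a control siRNA (siControl) and are called gained. The others are called kept. A Smad4 peak of siTTF-1 cells lay on 1281 of the 14145 Smad3 peaks (9.06%), and 385 of those were gained. These 385 sites, selected on the presence and absence of peaks in 3 lists, are 2.72% of the siTTF-1 Smad3 peaks and 5.54% of the gained ones. The 7 peak lists of the series hold 79601 peaks in all. Because Smad3 gain and Smad4 overlap made the choice, both are described without a test.

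All libraries came from established lines. H441 expresses TTF-1 and A549 does not, per the labels. Smad3 and Smad4 were each mapped in H441 under siControl and siTTF-1, TTF-1 was mapped in H441 at 0 h and 1.5 h, and Smad3 was mapped in A549. All samples carry the same treatment label, 1 ng/ml TGF-β3 for 1.5 h, also the TTF-1 sample titled 0 h. The sample titles of the TTF-1 ChIP name no siRNA and their label for TTF-1 is positive. The siTTF-1 samples are labelled as depleted of TTF-1, without the extent. With a single library for each condition, replicate spread is unknown. Per the labels, the false discovery rate (FDR) allowed in calling peaks was 10% for Smad4, 5% for the A549 library and 1% for the other Smad3 and TTF-1 libraries. Positions are on hg18, counted from 1.

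Smad3 is a transcription factor that the activated TGF-β receptor phosphorylates. It then joins Smad4, the partner shared by the receptor-activated Smads, and the complex enters the nucleus. Smad complexes bind DNA weakly by themselves, and where they settle depends largely on other factors at the same enhancers. TTF-1, encoded by NKX2-1, is the homeodomain factor that defines the lung epithelial lineage and drives surfactant genes. The comparisons ask where Smad3 and Smad4 sat together after TTF-1 had been depleted, whether those places were TTF-1 sites in cells with TTF-1, and whether a line without TTF-1 used them too.

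The gained sites with Smad4 were of moderate width and spread over the whole Smad3 list. Their median width was 649 bp (quartiles 499 and 849, range 249 to 3149 bp), the same median as for all kept sites without Smad4, and wider than gained sites without Smad4, whose median was 499 bp. Kept sites with Smad4 had a median of 899 bp. Each list numbers its peaks from 1, and no source used here says what the number ranks. Wider sites had lower numbers: across the 385 sites Spearman's rho between width and Smad3 peak number was -0.43. Their median Smad3 peak number was 6716, between the 9790 of gained sites without Smad4 and the 1338.5 of kept sites with Smad4.

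When the siTTF-1 Smad3 list was divided into 5 equal strata by peak number, 67, 94, 103, 64 and 57 of the 385 sites fell in the successive strata. The sites with Smad4 that were kept stood in the first stratum in 668 of 896 cases (74.6%). Gained sites without Smad4 leaned the other way, with 197 of 6559 in the first stratum and 2217 (33.8%) in the last. Among gained peaks, the share that carried Smad4 was 25.4% in the first stratum (67 of 264) and 2.51% in the last (57 of 2274). Among Smad3 peaks with Smad4, the gained share went from 9.12% in the first stratum to 87.7% in the last, where 57 of 65 were gained. Both gradients use the overlaps that chose the sites and are given as a description, with no test.

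Because overlap with Smad4 chose the sites, both peaks were near each other by the rule. The distance between the 2 centres was 100 bp at the median (quartiles 50 and 150, at most 575 bp), and it was within 200 bp at 335 of the 385 sites (87.0%). At kept sites with Smad4 it was within 200 bp in 719 of 896 cases (80.2%). The Smad4 peak was contained in the Smad3 peak at 314 sites (81.6%), against 93.8% of kept sites with Smad4. Kept sites with Smad4 were wider, with a median of 899 bp against 649 bp, so these shares are not compared at equal width. Smad4 peaks at these sites had a median width of 299 bp, which is also the median of the whole Smad4 list, and at 10 sites the Smad4 peak was wider than the Smad3 peak. A single Smad4 peak was present at 382 sites and 2 were present at 3 sites. At 2 places 1 Smad4 peak bridged a pair of neighbouring gained Smad3 peaks. They were chr16:29190901-29191249, Smad4 peak number 753, and chr19:23522551-23522899, number 119. Those 4 Smad3 peaks are therefore not separate Smad4 sites.

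**Figure D1:**
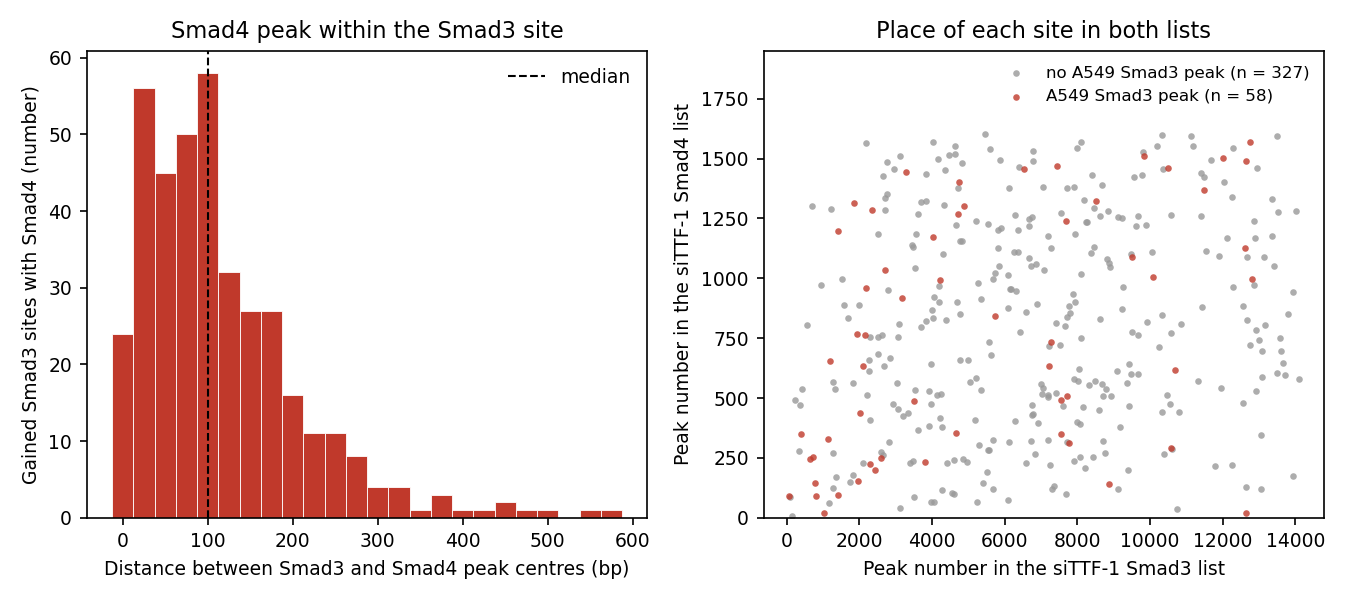
Left, distance in bp between the Smad3 and Smad4 peak centres at the 385 gained sites, in bins of 25 bp, with the median of 100 bp as a dashed line. Right, each site by its peak number in the siTTF-1 Smad3 list and in the siTTF-1 Smad4 list, with the 58 sites that also had an A549 Smad3 peak in red; the points fill the panel, and the rank correlation was 0.20.

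The order of a site in the Smad3 list said little about its order in the Smad4 list. Across the 385 sites Spearman's rho between both numbers was 0.20, and across the 896 kept sites with Smad4 it was 0.26. All points share the same 2 libraries. Sites could stand near the head of the Smad4 list and near the end of the Smad3 list. The site at chr10:88190801-88191499 had Smad4 number 22 of 1605 and Smad3 number 12651 of 14145, and the site at chr4:79433801-79434499 had Smad4 number 37 and Smad3 number 10753.

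Seen from the Smad4 list, gained sites took a nearly constant part. Of the 1605 Smad4 peaks, 386 (24.0%, exact Clopper-Pearson 95% interval 22.0 to 26.2) lay on the gained sites. In 5 equal strata of the Smad4 list of 321 peaks each, the numbers were 74, 86, 74, 81 and 71, or from 22.1% to 26.8%. Smad4 peaks on kept Smad3 sites went from 238 (74.1%) in the first stratum to 114 (35.5%) in the last. Smad4 peaks without a siTTF-1 Smad3 peak went the other way, from 9 (2.80%) to 136 (42.4%). These shares use the overlaps that chose the sites. They are a description, with no test. The Smad4 list of siControl cells held 1 peak, which touched none of the 385 sites, so Smad4 at these places in siControl cells could not be judged from peaks.

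**Figure D2:**
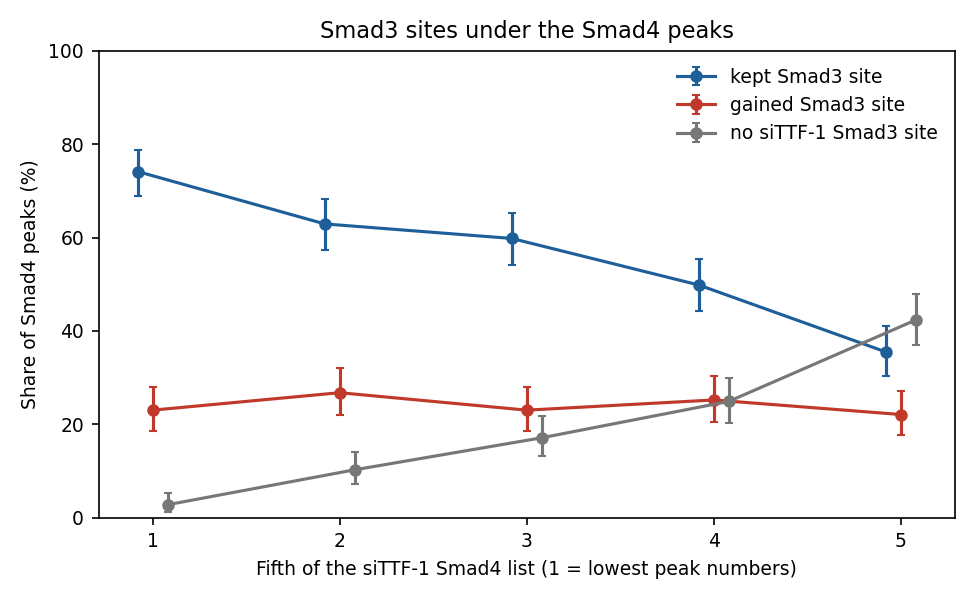
Share of Smad4 peaks (%) that lay on a gained Smad3 site, on a kept Smad3 site or on no siTTF-1 Smad3 peak, in 5 equal strata of the Smad4 list by peak number (321 peaks each), with exact 95% intervals. The gained line stays between 22.1% and 26.8%, the kept line goes from 74.1% to 35.5%, and the line without Smad3 from 2.80% to 42.4%.

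The sites close to the limits of the rule were few. The smallest length shared with Smad4 was 49 bp, at 6 sites, and 12 of the 385 shared under 100 bp. Just outside, 3 gained Smad3 peaks lay 1 bp from a Smad4 peak without touching it, at chr1:117421001-117421249, chr4:140038451-140038949 and chr5:73973901-73974799, and the next 2 lay at 51 and 101 bp. The lists give positions in 50 bp steps, so 49 bp and 1 bp are the smallest overlap and gap they allow. On the side of the siControl list, the nearest gained sites lay 101 bp from a siControl Smad3 peak, at chr17:9492051-9492899 and chr22:26199901-26200599, followed by sites at 151 and 201 bp. Among kept sites with Smad4, the smallest length shared with a siControl peak was 249 bp. Within 1 kb of a siControl Smad3 peak there were 16 of the 385 sites (4.16%), and 200 of them were more than 50 kb away. The median distance was 54351 bp (quartiles 16951 and 164201), against 49926 bp for gained sites without Smad4. Peak lists give no depth, so Smad3 that was absent in siControl cells and Smad3 that fell under the calling limit there cannot be told apart. When every overlap, with siControl Smad3 as well as with Smad4, had to cover at least 50% of the Smad3 peak, 128 sites met the rule. A Smad3 peak covered less by siControl then counts as gained, so the 128 need not all be among the 385. When the siTTF-1 Smad3 list was shortened by peak number to the 8941 peaks of the siControl list, 281 met it. It was met by 251 sites in the wider 50% of the Smad3 list and by 194 sites with the first 50% of the Smad4 list.

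Most of these sites had no called TTF-1 peak in cells that have TTF-1. A TTF-1 0 h peak was present at 90 of the 385 sites (23.4%, 19.2 to 27.9) and a TTF-1 1.5 h peak at 65 (16.9%, 13.3 to 21.0). Over all siTTF-1 Smad3 peaks the shares were 62.5% and 54.1%. The gained sites without Smad4 had TTF-1 0 h in 2512 of 6559 cases (38.3%, 37.1 to 39.5) and TTF-1 1.5 h in 1765 (26.9%, 25.8 to 28.0). Kept sites with Smad4 had it in 693 of 896 cases at 0 h (77.3%, 74.5 to 80.0) and in 679 at 1.5 h (75.8%, 72.8 to 78.6). The gained sites with Smad4 thus had the lowest TTF-1 share of the 4 sets at both times, and their intervals did not reach those of the other sets. The intervals treat peaks as independent and cover counting error only. No test was made, because each list stands for 1 library and peaks are not replicates of a condition.

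The TTF-1 share was lower in each stratum of the Smad3 list, though not beyond counting error in every one. In the 5 strata of peak number the TTF-1 0 h share of the gained sites with Smad4 was 7.46%, 25.5%, 24.3%, 32.8% and 26.3%. Gained sites without Smad4 had 23.4%, 33.9%, 38.7%, 40.6% and 39.1%, so the sites with Smad4 were lower in 5 of 5 strata. They were also lower in 5 of 5 strata at 1.5 h, and in 5 of 5 strata of width at either time. By peak number the intervals of both sets overlapped in 3 of 5 strata at 0 h and in 5 of 5 at 1.5 h. The lowest value stood at the head of the list, where 5 of 67 sites had TTF-1 0 h and 5 had TTF-1 1.5 h. Weighted to the strata of peak number of the 385 sites, the gained sites without Smad4 would have TTF-1 0 h in 35.2% and TTF-1 1.5 h in 24.8% of cases.

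**Figure D3:**
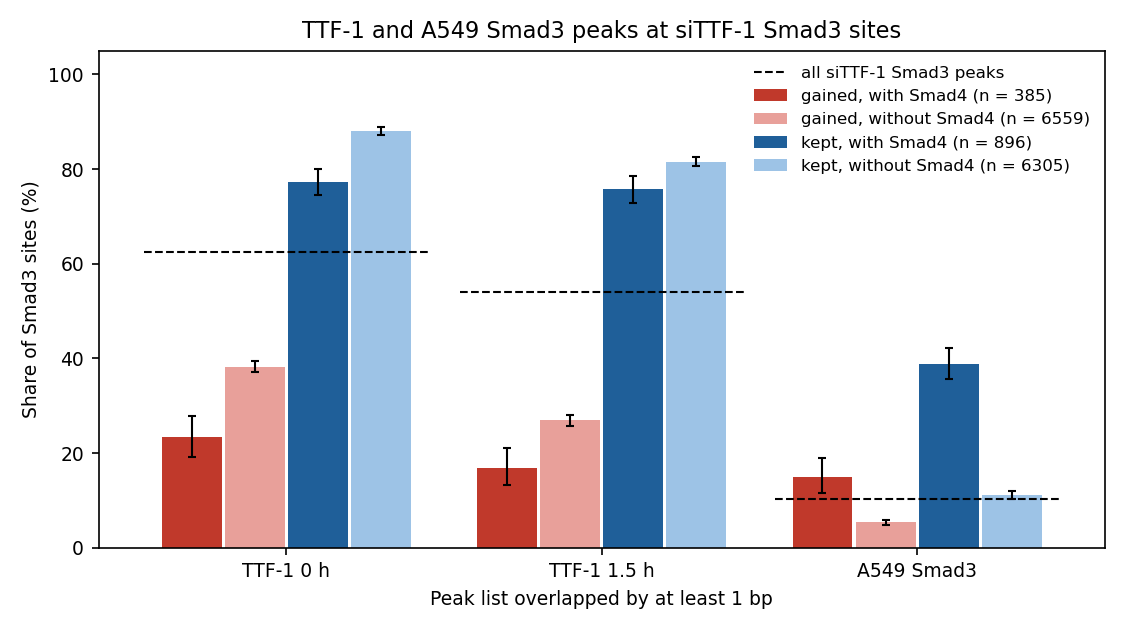
Share (%) of siTTF-1 Smad3 sites that overlapped a TTF-1 0 h, TTF-1 1.5 h or A549 Smad3 peak, in 4 sets split by gain and by Smad4; error bars are exact 95% intervals over peaks, and dashed lines mark all 14145 siTTF-1 Smad3 peaks (62.5%, 54.1% and 10.3%). Gained sites with Smad4 have the lowest bars for TTF-1 (23.4% and 16.9%), and for A549 they lie between the gained sites without Smad4 and the kept sites with Smad4 (15.1%, 5.38% and 38.8%).

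The 90 sites with TTF-1 0 h were chosen by overlap of the TTF-1 and Smad3 peaks, which by itself keeps their centres close. The TTF-1 0 h centre was at a median of 75 bp from the Smad3 centre, and the Smad4 peak itself overlapped the TTF-1 0 h peak at 87 of the 90 sites (96.7%). At kept sites with Smad4 it did so in 682 of 693 cases (98.4%). The median distance to the Smad3 centre was 75 bp at kept sites with Smad4 as well, and 50 bp at gained sites without Smad4. Counting these 90 sites, 173 of the 385 (44.9%) had a TTF-1 0 h peak within 10 kb, against 61.2% of gained sites without Smad4. Over all 385 the median edge distance was 14401 bp, against 3201 bp for gained sites without Smad4.

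The TTF-1 peaks at these sites stood later in the TTF-1 lists than those at kept sites with Smad4. Their median number was 20902 of 31083 at 0 h, against 17723 at gained sites without Smad4 and 9000 at kept sites with Smad4. At 1.5 h it was 12915 of 21291, close to the 13280 at gained sites without Smad4, and 6544 at kept sites with Smad4. Only 5 of the 90 (5.56%) belonged to the first of 5 strata of the 0 h list, compared with 222 of 2512 (8.84%) at gained sites without Smad4 and 263 of 693 (38.0%) at kept sites with Smad4. At 54 of the 90 sites (60.0%, 49.1 to 70.2) TTF-1 was also present at 1.5 h. That share was 65.3% for the whole 0 h list and 92.2% at kept sites with Smad4. At 36 sites TTF-1 was listed at 0 h alone and at 11 sites at 1.5 h alone. Shares at 1 time alone were not counted for the other sets, so nothing particular to these sites is read from them. TTF-1 was listed at both times at 14.0% of the 385 sites and at 52.0% of all siTTF-1 Smad3 peaks.

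Smad3 of A549 cells was found at 58 of the 385 sites (15.1%, 11.6 to 19.0). Over all siTTF-1 Smad3 peaks the share was 10.3%, at gained sites without Smad4 it was 5.38% (353 of 6559, 4.85 to 5.96), and at kept sites with Smad4 it was 38.8% (348 of 896, 35.6 to 42.1). The A549 share depended on the place in the Smad3 list. It was 34.3% in the first stratum (23 of 67, 23.2 to 46.9) and 10.6%, 9.71%, 12.5% and 12.3% in the others. Gained sites without Smad4 had 7.61%, 8.60%, 6.79%, 4.81% and 3.56%, so the sites with Smad4 were higher in 5 of 5 strata of peak number, with overlapping intervals in 3 of them. By width they were higher in 4 of 5 strata, and in the fourth stratum the shares were 4.62% and 5.40%. Weighted to the strata of the 385 sites, gained sites without Smad4 would have an A549 peak in 6.57% of cases by peak number and in 7.16% by width. Kept sites with Smad4 had higher A549 shares than the 385 sites in 5 of 5 strata of peak number, with overlapping intervals in 4, and the last of these strata held only 8 kept sites, 1 of them with an A549 peak. By width they were higher in 4 of 5 strata. Among the 385 sites, 27 of the 101 in the widest stratum had an A549 peak (26.7%) and 2 of the 42 in the narrowest (4.76%). Over all siTTF-1 Smad3 peaks the shares were 23.9% in the widest stratum (676 of 2829) and 2.65% in the narrowest (75 of 2829). The fall with width is therefore not particular to the 385 sites.

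**Figure D4:**
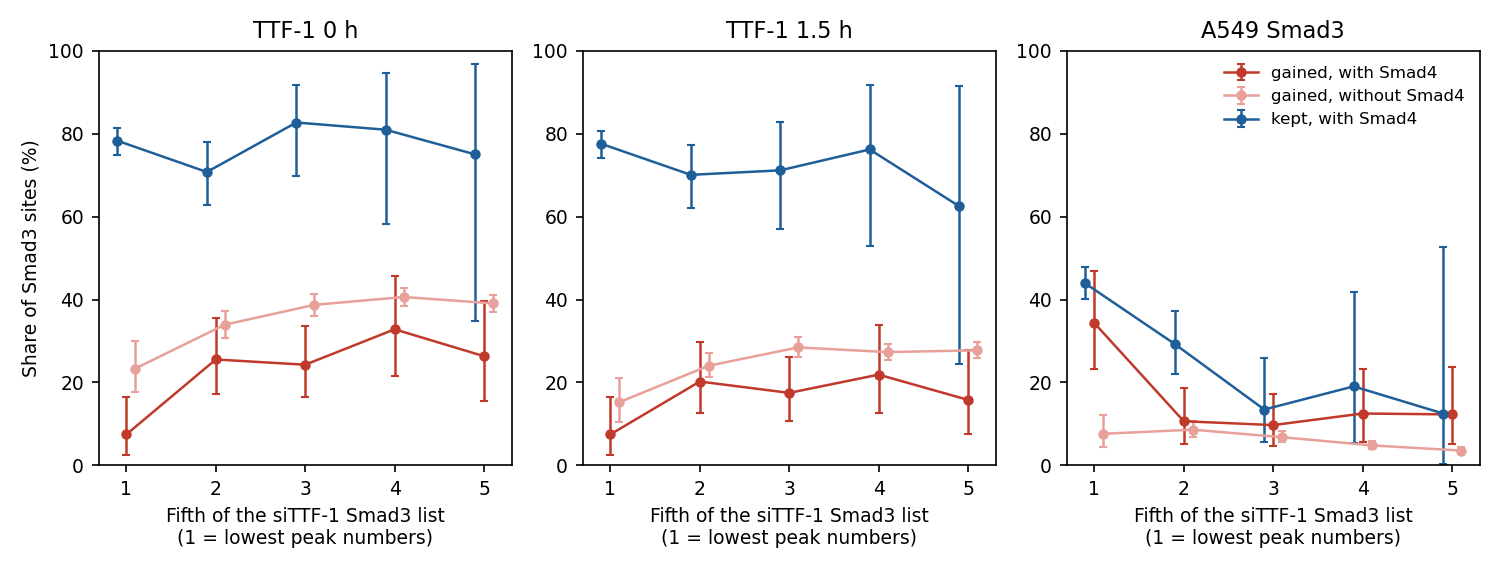
Share (%) of Smad3 sites with a TTF-1 0 h, TTF-1 1.5 h or A549 Smad3 peak in 5 equal strata of the siTTF-1 Smad3 list by peak number, with exact 95% intervals; points of the sets are set slightly apart on the x axis for legibility. For gained sites with Smad4, TTF-1 0 h is lowest (7.46%) and A549 Smad3 highest (34.3%) in the first stratum.

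The 58 sites were likewise chosen by overlap with an A549 peak, so short distances between centres are built in. The median distance of their centres was 100 bp to the Smad3 centre and 75 bp to the Smad4 centre, and the Smad4 peak itself overlapped the A549 peak at 58 of 58 sites. At kept sites with Smad4 it did so in 342 of 348 cases (98.3%). The distance to the Smad3 centre was similar elsewhere, 75 bp at gained sites without Smad4 and 87.5 bp at kept sites with Smad4. The median A549 peak number at the 58 sites was 928 of 2535, against 1385 at gained sites without Smad4 and 862.5 at kept sites with Smad4. The A549 share did not differ beyond counting error with the presence of TTF-1. It was 14.4% (13 of 90, 7.92 to 23.4) at sites with TTF-1 0 h and 15.3% (45 of 295, 11.3 to 19.9) at sites without, and the wide interval of the first leaves room for a difference of several points in either direction.

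By their TTF-1 and A549 peaks the 385 sites fell into 3 main classes. The largest had neither, with 242 sites (62.9%, 57.8 to 67.7), a median width of 599 bp and a median Smad3 number of 6673. Gained sites without Smad4 had neither in 56.5% of cases (55.3 to 57.7), close to the 385 sites. Over all siTTF-1 Smad3 peaks 32.7% had neither, and among kept sites with Smad4 11.6% did. A second class of 101 sites (26.2%) had TTF-1 at one time or both, against 64.7% of all siTTF-1 Smad3 peaks and 40.4% of gained sites without Smad4. Their median Smad3 number was 7513. The third class of 42 sites (10.9%, 7.98 to 14.5) had an A549 peak and no TTF-1 peak. The share was 2.67% over all siTTF-1 Smad3 peaks, 3.13% at gained sites without Smad4 and 6.58% at kept sites with Smad4. These shares also depend on how many sites lacked TTF-1. Among sites with TTF-1 at neither time, 42 of 284 gained sites with Smad4 had an A549 peak (14.8%). For such sites it was 5.24% at gained sites without Smad4 and 36.2% at kept sites with Smad4 (59 of 163). The 42 sites of the third class were wider, with a median of 849 bp, and stood earlier in the Smad3 list, with a median number of 2656.5. Of these 42 sites, 22 were in the first stratum, compared with 39 of the 242 sites with neither and 6 of the 101 sites with TTF-1. Their median Smad4 number, 694.5, was close to the 727 of the sites with neither, and sites with TTF-1 had 944.

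The first gained sites with Smad4 of the Smad3 list mostly had no TTF-1 peak, like most of the 385 sites. Among the 10 with the lowest Smad3 numbers, 1 had TTF-1 and 3 had A549 Smad3. TTF-1 was present at neither time at 73.8% of the 385 sites and 35.3% of all siTTF-1 Smad3 peaks. In the first stratum 7.46% of the gained sites with Smad4 had TTF-1 0 h and 34.3% had A549 Smad3. Number 68 (chr21:36731951-36732699, 749 bp) had Smad4 number 92 with centres 25 bp apart and an A549 peak, number 1194. The nearest siControl Smad3 peak lay 7151 bp away and the nearest TTF-1 0 h peak 209201 bp away. Number 94 (chr4:8356201-8357149) had Smad4 number 89 and its nearest A549 peak lay 423201 bp away. Number 159 (chr1:226188751-226190049) had the earliest Smad4 peak of the 385 sites, number 8, with a width of 799 bp. Its nearest siControl Smad3 peak lay 170051 bp and its nearest A549 peak 2096551 bp away. This site thus stood near the head of both siTTF-1 Smad lists and was not listed in the other line.

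The next sites showed the same mixture. Number 236 (chr17:3644951-3645749) and number 343 (chr22:26182951-26183549) had Smad4 peaks numbered 490 and 280 and neither TTF-1 nor A549. Number 381 (chr5:43324201-43324899) was the exception with TTF-1: its TTF-1 peaks had numbers 2450 at 0 h and 1922 at 1.5 h, and the Smad3 and Smad4 centres coincided. Number 404 (chr7:100538401-100539749) had Smad4 number 350 and A549 number 2397. Number 435 (chr5:148586951-148588099) lay 801 bp from TTF-1 peaks of both times without touching them. Number 565 (chr2:170876751-170877899) had neither, and number 637 (chr1:149835401-149836249) had Smad4 number 247 and A549 number 976.

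Of the 5 widest sites, 3 were shared with A549. In the widest stratum, 26.7% of gained sites with Smad4 and 23.9% of all siTTF-1 Smad3 peaks had an A549 peak. That share was 47.2% at kept sites with Smad4 and 11.6% at gained sites without Smad4. Nothing particular to these 5 sites is read from the count. The widest, 3149 bp at chr17:7685351-7688499, held 2 Smad4 peaks, an A549 peak numbered 150 and a late TTF-1 0 h peak, number 26017. The site at chr20:56025401-56027949 (2549 bp) held 2 Smad4 peaks, among them the widest at any gained site (949 bp), and A549 number 82. At chr20:30039001-30040699 (1699 bp), with a Smad4 peak of 749 bp, the A549 number was 576. The other two, chr2:216888551-216890299 (1749 bp) and chr9:96893601-96895249 (1649 bp), had neither TTF-1 nor A549. Wide Smad4 peaks also lay at chr4:117159351-117160599 (699 bp, Smad4 number 1301, 1801 bp from a siControl Smad3 peak) and at chr5:179619051-179619599 (649 bp, Smad4 number 68), where the Smad4 peak was wider than the Smad3 peak. Early Smad4 peaks also lay at chr7:100556001-100557399, with Smad4 number 21 and A549 number 348, and at chr14:50932451-50933599, with Smad4 number 43 and neither TTF-1 nor A549. The site at chr10:88190801-88191499 named above, with Smad4 number 22, had A549 number 391.

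Every other peak, that is TTF-1 at both times and A549 Smad3, was present at 7 sites (1.82%). The same combination was not counted in the other sets, so nothing particular to these sites is read from it. The first 5 of the 7 sites had Smad3 numbers from 3182 to 10579, so none stood in the first stratum. At chr13:42192401-42193199 the Smad4, TTF-1 0 h, TTF-1 1.5 h and A549 numbers were 917, 8123, 4463 and 729. At chr6:7919701-7920949 the TTF-1 0 h number was 1200, the lowest at any of the 385 sites. The others were chr3:113106201-113107049, chr6:16877301-16877899 and chr2:36484451-36484999. The first of these 3 lay 1051 bp and the second 2251 bp from a siControl Smad3 peak.

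The sites were spread over 23 chromosomes, from 7 each on chromosomes 18, 21 and X to 38 on chromosome 1. The share of a chromosome's gained peaks that carried Smad4, 5.54% over the genome, ranged from 3.46% on chromosome 12 (11 of 318) to 8.99% on chromosome 22 (8 of 89). Chromosome 9 had 23 of 291 (7.90%) and chromosome 16 had 15 of 174 (8.62%). These counts are small, and the differences were not tested.

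**Figure D5:**
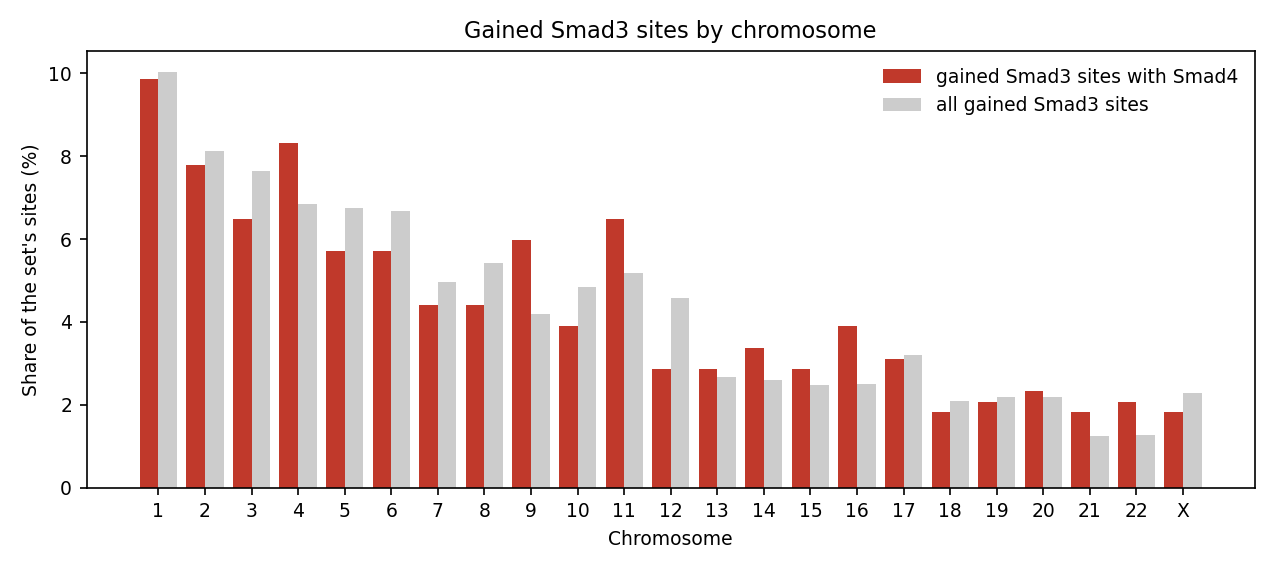
Share (%) of the 385 gained sites with Smad4 (red) and of all 6944 gained sites (grey) on each chromosome; chromosome Y, with 1 gained site and none with Smad4, is left out. Both sets follow a similar profile, with 9.87% and 10.0% on chromosome 1 and 2.86% and 4.58% on chromosome 12.

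Most sites stood alone. The median distance to the next gained site with Smad4 was 1684301 bp, and 17 of the 385 (4.42%) had another within 10 kb. Other Smad3 sites were nearer: the median was 57501 bp to a gained site without Smad4, 84551 bp to a kept site without Smad4 and 705151 bp to a kept site with Smad4. These sets differ in size, so the distances give the local surroundings and not a preference.

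A few windows of 1 Mb held several. Of the 321 windows with a site, 268 held 1, 44 held 2, 7 held 3 and 2 held 4. The windows with 4 were chr4:8000001-9000000 and chr17:3000001-4000000. The first held 10 siTTF-1 Smad3 peaks against 2 siControl Smad3 peaks, and the second held 9 against 2. Windows were ranked by their number of gained sites, so an excess over siControl is partly built in. The whole lists hold 14145 and 8941 peaks. Other windows had a milder excess, for example 15 against 10 at chr1:228000001-229000000. In the chromosome 17 window 3 sites lay in a row with gaps of 2751 and 2601 bp, at chr17:3641601-3642199, chr17:3644951-3645749 and chr17:3648351-3649299, and none of them had TTF-1 or A549. The first window with 3 sites in chromosome order was chr1:226000001-227000000, which holds the site numbered 159. A similar row at chr7:100538401-100539749, chr7:100547201-100547999 and chr7:100556001-100557399 had an A549 Smad3 peak at each of its 3 sites and TTF-1 at none. It was singled out after its values were seen. Its window held 9 siTTF-1 Smad3 peaks, 8 of them gained, and 1 siControl Smad3 peak. Over the 9 windows with 3 or more sites, 2 of the 29 sites had TTF-1 0 h, none had TTF-1 1.5 h and 5 had A549 Smad3. Over all 385 sites the shares were 23.4%, 16.9% and 15.1%, and over all siTTF-1 Smad3 peaks 62.5%, 54.1% and 10.3%. With so few sites in these windows, no difference is read from the counts.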

How the data were processed

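The authors deposited 1 peak list per ChIP library, each called on a single library, on hg18 per the submitters' processing notes. Peaks had been called against input at the limits given above, per the labels. No source used here names the aligner or peak caller. Each deposited list gives positions in 50 bp steps with a peak number. The authors also deposited a score column; it is 1000 throughout and was not used. No reads were used, so depth is unknown.

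Starts were raised by 1. Overlap meant at least 1 bp. It recovered the deposited siTTF-1 Smad3 lists with (8847) and without (5298) TTF-1 0 h in full. Intervals of shares are exact (Clopper-Pearson, 95%). Other overlap rules, shortened lists, autosomes, merged peaks and strata were tried. Weighting to strata and the requirement of a contained Smad4 peak were chosen after seeing the data. Named sites were those with the lowest Smad3 (10) or Smad4 (5) numbers, the widest Smad3 or Smad4 peaks (5 each), the first 5 with all other peaks and the 3 fullest windows. The sites and lists were chosen with earlier results of these data known. Planned motif and gene counts were not run, because no hg18 genome or annotation was used here.

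Python 3.11.15, NumPy 2.4.6, SciPy 1.17.1 and matplotlib 3.10.9 were used. Overlap counting, tested on simulated data, gave the count of bedtools 2.31.1 in 8 of 8 lists.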

Additional observations from a re-analysis of the deposited data

How the results depend on the processing

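The number of gained Smad3 sites with Smad4 was 385. It was 128 when at least 50% of the Smad3 peak had to be covered, 251 with the wider 50% of the Smad3 siTTF-1 peaks and 194 with the first 50% of the Smad4 list. Smad4 peaks are narrower than Smad3 peaks, and the other two settings offer fewer peaks, so these falls follow in part from the settings. Under the other 7 settings it lay between 281, with as many siTTF-1 as siControl Smad3 peaks, and 389. The TTF-1 0 h share fell outside the interval of its main value at 16.4% with 50% coverage and 17.0% with the first 50% of the Smad4 list. For TTF-1 1.5 h these settings gave 11.7% and 11.9%. The A549 share did so at 19.9% in the wider 50% of the Smad3 peaks. The rules of 50% coverage and of centres within 200 bp were applied to every overlap, also with siControl Smad3, TTF-1 and A549. Both rules thus redefined the shares as well as the sites. The cause of these shifts was not tested. Under all 10 settings the TTF-1 shares were below, and the A549 share above, those of gained sites without Smad4 under the same setting. The smallest TTF-1 gap came with centres within 200 bp, at 19.8% against 24.6% for TTF-1 1.5 h. No library could be left out, since each condition has 1, and no paired analysis was possible because no condition has replicates. Depth is unknown, so a missing peak sets no limit on binding.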
